A study of Mus musculus with 4 samples.

Results

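Two-pore domain potassium channels, the K2P family encoded by the Kcnk genes, were followed through the cell types of the arcuate nucleus (ARC), a part of the mouse hypothalamus. The 8 members were chosen by name from the gene table of the series: Kcnk1, Kcnk2, Kcnk3, Kcnk4, Kcnk9, Kcnk10, Kcnk12 and Kcnk13. They are 8 of 14 Kcnk genes of that table and of its 31053 genes in all. The data are single-nucleus RNA counts from ARC punches of wildtype male C57BL/6J mice aged 10 weeks. One group carried a subcutaneous pellet of deoxycorticosterone acetate and could drink saline beside water for 3 weeks (DOCA-salt, a model of mineralocorticoid hypertension), and the other had a sham operation and drank water (Sham). Each group has 2 libraries, each a pool of nuclei from 2 mice, named DOCA-salt 1 and 2 and Sham 1 and 2, and where values of a pair of pools are given, pool 1 comes first. A pool averages its mice, so no p-value measures the spread between mice. In tests of treatment within a class, p-values refer to the spread between pools. In tests that compare classes within libraries, they refer to how far the class differences vary between libraries. The spread used for a gene is estimated in part from the other genes.

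Members of the K2P family form a channel from a pair of subunits, each with a pair of pore loops. They pass potassium at rest with little dependence on voltage, and this leak holds neurons and glia near the potassium equilibrium potential. Kcnk2 (TREK-1), Kcnk4 (TRAAK) and Kcnk10 (TREK-2) are opened by membrane stretch, polyunsaturated lipids and, for most, warmth. Kcnk3 (TASK-1) and Kcnk9 (TASK-3) are closed by extracellular acid and by receptors coupled to Gq proteins. Kcnk12 (THIK-2) and Kcnk13 (THIK-1) are halothane-inhibited channels, and Kcnk13 is known as a resting channel of microglia. Kcnk1 (TWIK-1) carries little current at the cell surface on its own and is known from astrocytes, where it works together with Kcnk2.

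The stretch that makes these genes a family is shown first. For each member, the 45 bases below are coding sequence of the GENCODE vM21 transcript with the longest coding part (build GRCm38), read 5′ to 3′ along the transcript, and the 15 capitals are the codons of the potassium selectivity filter in the first pore loop.
Kcnk1: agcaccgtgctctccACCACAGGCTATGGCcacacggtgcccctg
Kcnk2: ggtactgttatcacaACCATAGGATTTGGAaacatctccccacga
Kcnk10: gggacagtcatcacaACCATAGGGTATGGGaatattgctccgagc
Kcnk4: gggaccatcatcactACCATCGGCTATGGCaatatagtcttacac
Kcnk3: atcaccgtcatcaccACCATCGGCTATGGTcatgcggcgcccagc
Kcnk9: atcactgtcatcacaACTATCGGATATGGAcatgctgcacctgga
Kcnk12: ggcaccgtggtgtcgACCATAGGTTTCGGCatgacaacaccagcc
Kcnk13: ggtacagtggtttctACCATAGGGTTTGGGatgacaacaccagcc

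The stretch is split between 2 exons in the genome in 8 of 8 members. The same filter signature occurred a second time in frame in 7 of them, and once in Kcnk1. Kcnk12 and Kcnk13 were identical at 38 of the 45 bases, Kcnk3 and Kcnk9 at 35, and Kcnk2 and Kcnk10 at 32. Kcnk1 and Kcnk3, of different subfamilies, were also identical at 32. The signature was found on the sense strand, in any frame, in 2.57% of the 58797 protein-coding transcripts of that annotation. No run of 60 bases was shared between transcripts of any members, so their reads can be told apart.

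In GRCm38 the genes lie at chr8:125995170-126030685 (Kcnk1, plus strand), chr1:189207930-189402273 (Kcnk2, minus), chr5:30588170-30625271 (Kcnk3, plus) and chr19:6923966-6934515 (Kcnk4, minus). The others lie at chr15:72501089-72546340 (Kcnk9, minus), chr12:98429437-98578310 (Kcnk10, minus), chr17:87745801-87797994 (Kcnk12, minus) and chr12:99964499-100062682 (Kcnk13, plus). Of these, 3 share a stretch with an annotated gene of the same strand: Kcnk2 with 2900042K21Rik and the pseudogene Pdcd5-ps, Kcnk4 with Catsperz, and Kcnk10 with 5330409N07Rik. Counts of those 3 are therefore less certain than those of the other members.

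After filtering, 39176 nuclei remained, between 2203 (Sham 1) and 18907 (DOCA-salt 2) per library, with a median of 2401 to 3278 transcripts (UMIs) a nucleus in 3 libraries and 8215 in Sham 1. Library pairs shared between 1 and 44 barcodes. Classes were set by marker genes alone: 26472 nuclei (67.6%) were neurons, among them 551 Agrp, 19 to 240 Pomc per library, 632 Tac2, 1046 Sst and 192 Ghrh neurons, gated on UMIs of that peptide gene. The others named here were 2133 astrocytes, 1251 oligodendrocytes, 294 oligodendrocyte precursor cells (OPC), 277 microglia and 154 endothelial cells. Another 21.8% of nuclei met no gate. Neurons past both the Agrp and the Sst gates were put with Agrp, so the Sst class holds only neurons that did not pass the Agrp gate.

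Markers that the gates did not use were checked in the peptide classes. Agrp nuclei held Npy, the partner peptide of Agrp, at 2745 CPM (the CPM scale, on which the UMIs of all genes of a class and library sum to the same fixed total) in the DOCA-salt pool and 2391 and 2641 in the Sham pools, against 75.6, 81.6 and 96.8 CPM in other neurons of those libraries. Ghrh nuclei held Gsx1, a transcription factor of their lineage, at 42.8 to 54.3 CPM, with at most 4.79 in other neurons. Pomc nuclei held Cartpt, a peptide made with Pomc, at 1038 to 1884 CPM, with at most 416 in other neurons. Prdm12, a transcription factor of Pomc neurons, was at 17.3 to 30.0 CPM in Pomc nuclei of 3 libraries, but at 8.37 in DOCA-salt 2, from 1 UMI, with 5.93 in other neurons there. Tac2 nuclei held Pdyn, the dynorphin gene, at 272.6 CPM in DOCA-salt 1 and 115.5 and 203.1 in the Sham pools, but in DOCA-salt 2 at 40.6, below the 48.6 of other neurons there. Esr1, the estrogen receptor gene, was at 135.1, 53.7 and 98.9 CPM in Tac2 nuclei of the former libraries and at 31.4 in those of DOCA-salt 2. In other neurons Esr1 was at 20.4, 26.1 and 35.0 CPM in the former libraries and at 12.2 in DOCA-salt 2. The Tac2 class of DOCA-salt 2 thus goes against its label by Pdyn, while its Esr1 lay above that of other neurons there. The libraries also differed in region. Pmch and Hcrt, peptides of the lateral hypothalamus, summed to 4111 CPM in other neurons of DOCA-salt 2 and to between 39.4 and 56.4 in the other libraries, while 4 genes of striatal projection neurons summed to 415 CPM in DOCA-salt 1 and to between 79 and 96.3 elsewhere. At its highest library value, the sum of Pmch and Hcrt was also 2993 CPM in Tac2, 3034 in Sst, 2912 in Ghrh and 318 in Pomc neurons. In glia it reached 2026 CPM in astrocytes and 2810 in microglia. DOCA-salt 2 had 1 Agrp nucleus. Sums of under 10 nuclei were left out, so Agrp lacks DOCA-salt 2, and Ghrh and OPC lack Sham 1. In those 3 classes 1 pool stands for a group and was taken to vary like the others.

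**Figure D1:**
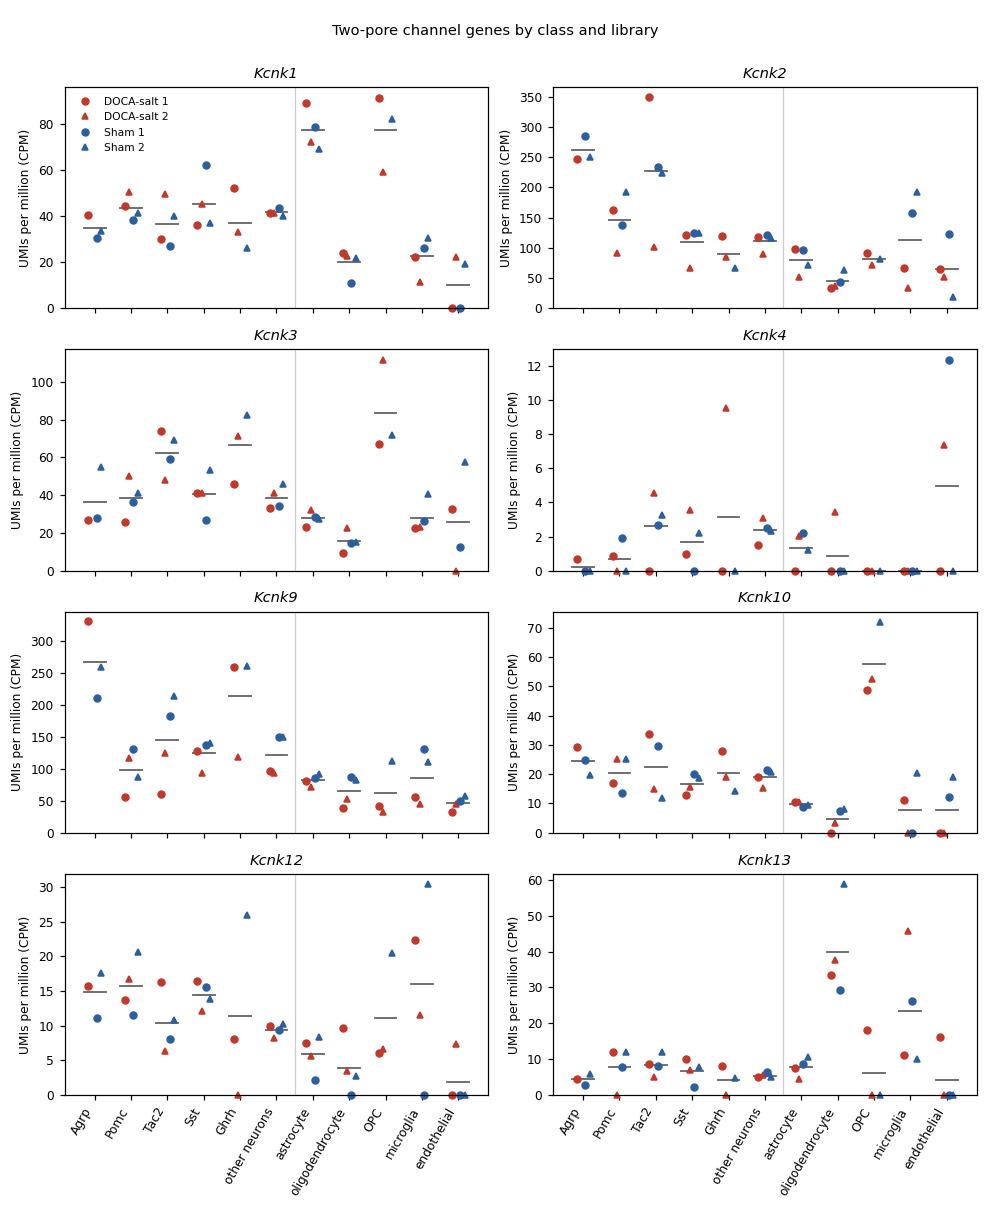
CPM of the 8 genes in 11 classes. Each point is a library, red for DOCA-salt and blue for Sham, the grey bar is their mean, and the vertical line parts neurons from other cells. Kcnk2 had its highest points in Agrp and Tac2 neurons and Kcnk9 its highest mean in Agrp neurons, which lack DOCA-salt 2. The highest means of other genes were those of Kcnk1 in OPC and astrocytes, Kcnk10 in OPC and Kcnk13 in oligodendrocytes.

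The peptides of these classes are known from neurons of appetite (Agrp, which drives feeding, and Pomc, which restrains it), reproduction (Tac2) and growth hormone control (Sst and Ghrh). Tac2 nuclei were gated on Tac2 alone, and those of DOCA-salt 2 were low in Pdyn. Kcnk2 and Kcnk9 took 6 of the 7 calls between them. CPM of Kcnk2 in Agrp neurons was 247.6 in the DOCA-salt pool and 285.4 and 250.0 in the Sham pools. In Tac2 neurons it was 348.9 and 102.3 CPM in the DOCA-salt pools and 233.6 and 223.8 CPM in the Sham pools, the widest spread of any class for this gene. The low value is that of DOCA-salt 2, where Tac2 nuclei were low in Pdyn, and the part of that in the spread was not tested. In other neurons it lay between 90.5 and 120.5, below every Agrp value and below 3 of the 4 Tac2 values.

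Each peptide class was tested against the mean of the other peptide classes with edgeR's quasi-likelihood test, the library as a block and Benjamini-Hochberg adjustment over the 11411 genes tested. Of 35 member tests, 7 passed an adjusted p of 0.05, against 5.2% of all genes in the Agrp comparison, 2.17% in Pomc, 3.51% in Tac2, 2.48% in Sst and 2.08% in Ghrh. Split by direction, 2.92% of genes were higher and 2.28% lower in Agrp, 1.35% and 0.824% in Pomc, 2.25% and 1.25% in Tac2, 1.56% and 0.92% in Sst and 1.63% and 0.447% in Ghrh. Kcnk4 was too low to be tested and the other 7 members were tested. Each class is part of the reference of the others, so a high class pulls the rest down. The calls of a gene are therefore not independent of each other. On the log2 scale Kcnk2 was higher in Agrp neurons by 0.76 ± 0.14 (SE, adjusted p = 0.000265) and in Tac2 neurons by 0.68 ± 0.13 (adjusted p = 0.000835). It was lower in Sst neurons, by −0.59 ± 0.13 (adjusted p = 0.00945), and in Ghrh neurons, by −0.90 ± 0.22 (adjusted p = 0.0165). Its mean was 109.6 CPM in Sst and 90.7 in Ghrh neurons, against 111.5 in other neurons, which are outside this reference. In Pomc neurons, where the 4 values ran from 92.1 to 193.1 CPM, Kcnk2 stood at 0.05 ± 0.14 and did not pass (adjusted p = 0.976).

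Kcnk9 took another order. Its CPM in Agrp neurons was 331.6 in the DOCA-salt pool and 210.6 and 259.8 in the Sham pools. In Ghrh neurons it was 260.6 in DOCA-salt 1, 118.9 in DOCA-salt 2 and 262.1 in Sham 2. Pomc neurons held 56.5, 117.2, 130.7 and 87.9 CPM in DOCA-salt 1, DOCA-salt 2, Sham 1 and Sham 2, all below the lowest Agrp value. The test gave 0.97 ± 0.16 for Agrp (adjusted p = 8.04e-05) and −1.19 ± 0.19 for Pomc (adjusted p = 0.000124), so the pair of melanocortin classes lay at opposite ends for this gene. Ghrh neurons, at 0.75 ± 0.21, missed the threshold (adjusted p = 0.0544), as did Sst at −0.39 ± 0.15 (adjusted p = 0.204) and Tac2 at −0.14 ± 0.17 (adjusted p = 0.840).

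Ordered by mean CPM, Kcnk9 ran from Agrp (267.3) through Ghrh (213.9), Tac2 (145.8), Sst (125.4), other neurons (122.5) and Pomc (98.1) to microglia (86.1), astrocytes (82.4), oligodendrocytes (65.8), OPC (62.8) and endothelial cells (45.9). Kcnk2 ran from Agrp (261.0) through Tac2 (227.2), Pomc (146.3), microglia (112.8), other neurons (111.5), Sst (109.6) and Ghrh (90.7) to OPC (81.9), astrocytes (79.4), endothelial cells (64.9) and oligodendrocytes (44.5). Every neighbouring pair of classes in both orders had overlapping library values. The Agrp means lack DOCA-salt 2, where Kcnk2 was low in several classes. Of the libraries that hold both classes, Kcnk2 was higher in Tac2 than in Agrp neurons in DOCA-salt 1 and lower in both Sham pools.

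**Figure D2:**
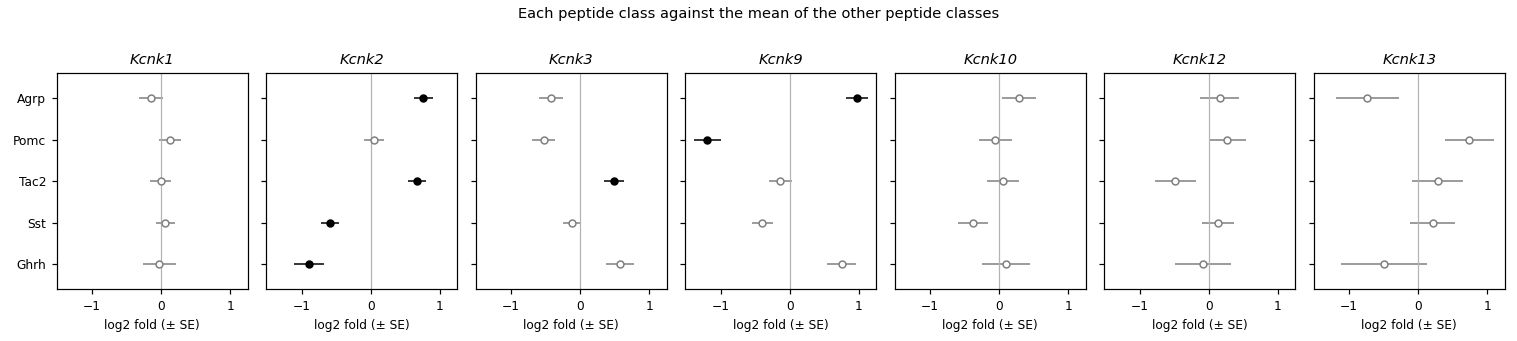
Log2 fold of each peptide class over the mean of the other peptide classes for 7 members, with the SE as bars. Filled points passed an adjusted p of 0.05: Kcnk2 and Kcnk9 to the right for Agrp, Kcnk2 and Kcnk3 for Tac2, and to the left Kcnk9 for Pomc and Kcnk2 for Sst and Ghrh.

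The other acid-sensitive member, Kcnk3, was called once. Its level in Tac2 neurons was 73.8 and 48.0 CPM in the DOCA-salt pools and 59.1 and 69.5 CPM in the Sham pools, and in other neurons 33.3 to 45.8, so these ranges did not overlap. The log2 difference from the other peptide classes was 0.49 ± 0.14 (adjusted p = 0.0493), and this call was lost in 8 of 14 alternatives. Ghrh neurons had 46.1 in DOCA-salt 1, 71.4 in DOCA-salt 2 and 82.6 in Sham 2, which did not pass (0.58 ± 0.21, adjusted p = 0.175). Kcnk1, Kcnk10, Kcnk12 and Kcnk13 were called in no peptide class.

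Without the library block 1 of the 35 member tests passed, that of Kcnk2 in Agrp neurons. With the sums thinned to the smallest total, 15 member tests remained and 2 passed, those of Kcnk2 in Tac2 and Ghrh neurons. The calls of Kcnk2 in Agrp and Sst neurons, of Kcnk3 in Tac2 neurons and of Kcnk9 in Agrp and Pomc neurons were lost there. Leaving out DOCA-salt 1 ended the call of Kcnk2 in Sst neurons, and leaving out Sham 2 that in Ghrh neurons. The other calls of Kcnk2 and Kcnk9 were made without each library in turn.

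The fraction of nuclei with a UMI was also compared at equal depth. Each nucleus was thinned to 1000 UMIs, and shallower nuclei were left out. Kcnk2 was then found in 26.2% of 359 Agrp nuclei in DOCA-salt 1, 18.8% of 32 in Sham 1 and 26.5% of 147 in Sham 2, against 9.68% to 11.03% of other neurons in those libraries. Kcnk9 was found in 29.2%, 21.9% and 27.2% of Agrp nuclei in this order, and in 9.75%, 12.7% and 14.5% of other neurons. Before thinning, with medians of 3400 UMIs in Agrp neurons and 2842.5 in other neurons of DOCA-salt 1, Kcnk2 was found in 58.0% of the 369 Agrp nuclei of that library. Both genes were seen together in 25 of the 359 thinned Agrp nuclei of DOCA-salt 1, in 2 of 32 of Sham 1 and in 11 of 147 of Sham 2.

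**Figure D3:**
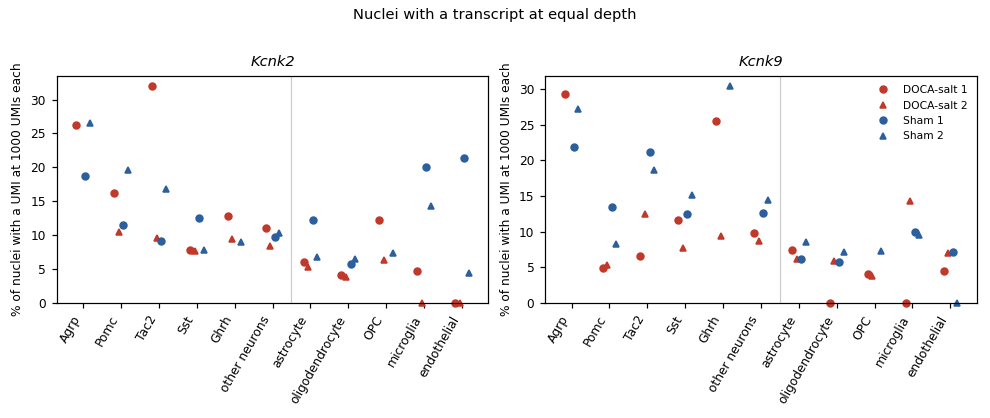
Percent of nuclei with at least 1 UMI of Kcnk2 (left) or Kcnk9 (right) after thinning every nucleus to 1000 UMIs, by class, with a point for each library. Agrp nuclei stood above other neurons in all 3 of their libraries for both genes, while glial and vascular classes scattered widely where few nuclei were left.

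Free RNA is a limit on low values in droplet data. The 10 neuronal gate genes, summed, stood in astrocytes at 0.443 to 0.551 of their level in neurons of the same library, and in oligodendrocytes at 0.355 to 0.531. The gates limit these same genes in glia and demand them in neurons, so the ratios can understate free RNA. A glial level near those ratios, or not far above them, cannot be told from RNA of neurons taken up by the droplet. Kcnk2 stood at 0.550 to 0.756 of the neuronal level in astrocytes and at 0.249 to 0.485 in oligodendrocytes, and Kcnk9 at 0.565 to 0.748 and 0.345 to 0.581. At 1000 UMIs a nucleus, Kcnk2 was found in 3.79% to 6.46% of oligodendrocytes and 8.39% to 12.5% of all neurons.

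Among non-neuronal cells, each class was tested against all neurons in a fit with the library as a block, which tested 7616 genes. Kcnk1, Kcnk2, Kcnk3, Kcnk9 and Kcnk10 entered it, and 16 of 25 member tests passed, 4 higher and 12 lower. Kcnk3 and Kcnk10 passed its filter of low counts only through their OPC sums, and Kcnk1 only through those of OPC and astrocytes. These genes and classes gave the 4 calls as higher, so those calls are not independent of the filter. The background was high: 48% of all genes tested were called in astrocytes, 49.5% in oligodendrocytes, 26.7% in OPC, 25.6% in microglia and 30.3% in endothelial cells, so the count is no more than a description. Of all genes, 20.7% were higher and 27.3% lower in astrocytes, 22.7% and 26.9% in oligodendrocytes, 13.5% and 13.2% in OPC, 12.7% and 12.9% in microglia and 16.2% and 14.1% in endothelial cells.

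In astrocytes Kcnk1 was higher than in neurons. Astrocytes held it at 89.1 and 72.0 CPM in the DOCA-salt pools and 78.8 and 69.0 CPM in the Sham pools, against 40.7, 41.8, 43.2 and 39.5 in all neurons. No astrocyte value reached down to a neuronal one, and the ratio was between 1.72 and 2.19 in each library. The difference was 1.02 ± 0.12 on the log2 scale (adjusted p = 2.53e-10), and the call was made in each of 13 alternatives. Oligodendrocytes held less than neurons, from 10.97 to 24.0 CPM (−0.75 ± 0.22, adjusted p = 0.00339).

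OPC, the dividing cells that give rise to oligodendrocytes, were higher than neurons in 3 members. Kcnk10 was at 48.7 CPM in DOCA-salt 1, 52.6 in DOCA-salt 2 and 71.9 in Sham 2, from 23 UMIs in all, while neurons of the 4 libraries ranged from 15.5 to 21.4. These ranges lay well apart, with a difference of 1.62 ± 0.39 (adjusted p = 0.000891, called in each of 10 alternatives that tested it). Kcnk3 was at 66.9, 111.7 and 71.9 CPM in the same libraries, against 34.5, 41.6 and 47.9 in neurons (1.09 ± 0.30, adjusted p = 0.0033). Kcnk1 was at 91.3, 59.1 and 82.1 CPM (0.93 ± 0.29, adjusted p = 0.0118). OPC values of all 3 genes exceeded the neuronal value of the same library. Kcnk10 and Kcnk3 entered the fit only through their OPC sums, where they are high. With no filter of low counts both were called. The call of Kcnk3 was lost without DOCA-salt 2 (adjusted p from 0.000397 to 0.148 over the alternatives), and that of Kcnk1 without DOCA-salt 1, without Sham 2 and with no filter of low counts. Kcnk9 went the other way in OPC, at 42.6, 32.9 and 112.9 CPM (−1.04 ± 0.26, adjusted p = 0.00153).

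Mature oligodendrocytes, by contrast, were lower than neurons for all 5 genes tested. Kcnk10 had 0, 3, 2 and 6 UMIs there in DOCA-salt 1, DOCA-salt 2, Sham 1 and Sham 2 (−1.63 ± 0.40, adjusted p = 0.000588), and a count of 0 still allows 14.4 CPM in the first of these. Kcnk3 stood at 9.6 to 22.8 CPM (−1.05 ± 0.24, adjusted p = 0.000226) and Kcnk2 at 33.5 to 62.9 (−1.07 ± 0.16, adjusted p = 1.23e-07). The 5 calls were made in each of the 10 to 13 alternatives that tested them. OPC against oligodendrocytes was not tested directly.

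**Figure D4:**
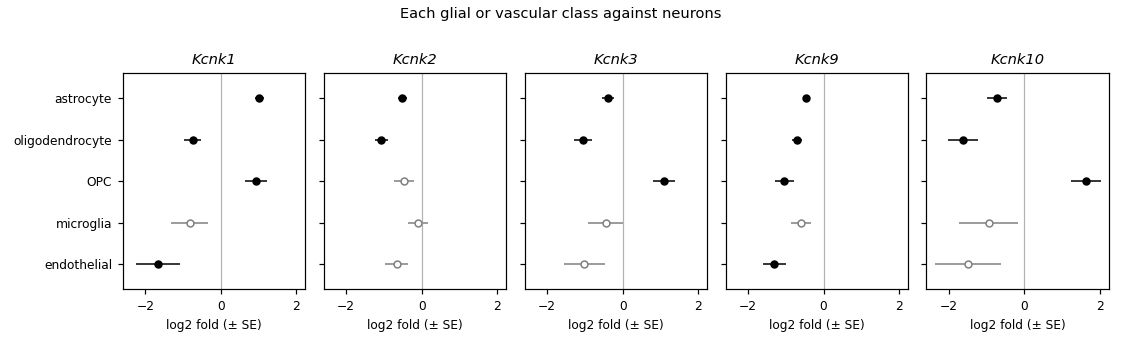
Log2 fold of each glial or vascular class over all neurons for the 5 members that passed the filter of low counts, with the SE as bars and filled points for an adjusted p under 0.05. Kcnk1 lay to the right in astrocytes and OPC, Kcnk3 and Kcnk10 in OPC, and the other called points to the left.

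Kcnk13 had its highest mean in oligodendrocytes. Too few UMIs kept it below the filter of the glial fit, so its levels are given without that test. In oligodendrocytes it was at 33.5 and 37.6 CPM in the DOCA-salt pools (7 and 33 UMIs) and 29.2 and 58.8 CPM in the Sham pools (8 and 43 UMIs), against 5.68, 5.46, 6.29 and 5.88 in neurons. All oligodendrocyte values lay above all neuronal ones, with ratios of 4.65 to 10.0 within a library. With no filter of low counts the difference was 3.02 ± 0.26 (adjusted p = 4.95e-29). Microglia, the cells this channel is known from, gave 1, 4, 1 and 1 UMIs in the 4 libraries, or 11.2, 45.9, 26.2 and 10.1 CPM, with intervals for counting error of 12.5 to 117 CPM in DOCA-salt 2 (exact Poisson, 95%), so these values overlapped those of oligodendrocytes. With no filter the difference from neurons was 1.77 ± 0.69 (adjusted p = 0.0748).

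Astrocytes were lower than neurons for Kcnk2 (−0.52 ± 0.12, adjusted p = 0.00017), Kcnk9 (−0.45 ± 0.10, adjusted p = 0.000126), Kcnk10 (−0.73 ± 0.26, adjusted p = 0.0174) and Kcnk3 (−0.39 ± 0.17, adjusted p = 0.0460). Kcnk3 was called in 6 of 13 alternatives, and without the library block none of these 4 was. With DESeq2 the calls of Kcnk2 and Kcnk10 were lost too, and without Sham 2 that of Kcnk10. Endothelial cells were lower for Kcnk1 (−1.65 ± 0.58, adjusted p = 0.0250, from 4 UMIs in all) and Kcnk9 (−1.31 ± 0.31, adjusted p = 0.000522). That call of Kcnk1 was lost with DESeq2, without DOCA-salt 1 and without Sham 1. Microglia passed for none of the 5 by edgeR, with Kcnk9 alone at an unadjusted p under 0.05 (−0.60 ± 0.26, adjusted p = 0.0826).

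Kcnk4 and Kcnk12 were sparse. Kcnk4 had 384 UMIs in all nuclei, of which 310 fell in neurons at 1.4 to 3.2 CPM a library, and 0 in the OPC and microglia of any library, which allows between 18.3 and 78.6 CPM there. Kcnk12 had 1568 UMIs in all nuclei and the ranges of all neighbouring classes in the order of means overlapped, with microglia first by mean on 6 UMIs. It lay at 11.5 to 20.6 CPM in Pomc neurons, 11.1 to 17.6 in Agrp neurons, 12.1 to 16.4 in Sst neurons and 8.2 to 10.2 in other neurons, and at 2.2 to 8.3 in astrocytes. Tanycytes, the ependymal cells lining the ventricle, were enough for a sum only in DOCA-salt 1 (30 nuclei) and Sham 2 (13), with Kcnk12 at 29.5 and 26.8 CPM from 3 and 2 UMIs.

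Across the means of 11 classes (log2 of CPM + 1, classes sharing their libraries), Kcnk3 and Kcnk10 were the members most alike, with a Pearson r of 0.88, followed by Kcnk2 with Kcnk12 (0.77) and Kcnk2 with Kcnk9 (0.75). Kcnk13 and Kcnk4 were unlike the others, Kcnk13 between −0.49 with Kcnk10 and 0.07 with Kcnk12, and Kcnk4 between −0.33 with Kcnk12 and 0.06 with Kcnk9. Of 11422 other genes, those closest in profile were Nlgn2 and Adck5 for Kcnk10 (0.99 and 0.98), Zfp157 and Tigd2 for Kcnk3 (0.97 and 0.96), Pstk and Nup98 for Kcnk12 (0.97 and 0.96) and Gm5914 and Prr5 for Kcnk1 (0.96 and 0.95). Kcnk13 was closest to Cd82 and Pigq (0.95 and 0.94), Kcnk2 to Chfr and Gpr139 (0.94 and 0.93), Kcnk9 to Pcsk1n and Epb41l4a (0.93 and 0.93) and Kcnk4 to Ism1 and Tmem65 (0.90 and 0.89). These are descriptions over 11 points.

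Related genes were read from 3 lists. Of the 6 remaining Kcnk genes, Kcnk6 alone was tested in the glial fit. In microglia it was at 179, 103, 131 and 60.7 CPM in DOCA-salt 1, DOCA-salt 2, Sham 1 and Sham 2, from 16, 9, 5 and 6 UMIs, against 3.15, 1.75, 2.31 and 2.97 in neurons. It was higher by 5.53 ± 0.45 (adjusted p = 1.24e-15), and it entered the fit through these microglial sums, where it is high. Among 8 genes of other resting conductances (the sodium leak channel Nalcn with its partners, and pacemaker channels), 6 were tested in each of 5 classes. Of these 30 tests, 22 passed as lower than in neurons and 1 as higher. By class, 12.9% to 27.3% of all genes tested were called lower and 12.7% to 22.7% higher. The 1 called higher was Hcn2, a pacemaker channel, in oligodendrocytes (1.86 ± 0.12, adjusted p = 1.62e-19).

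Among 18 partners and regulators of K2P channels, 14 were tested in each glial class. Of these 70 tests, 21 passed as lower and 7 as higher. By class, 8 of 14 were called in astrocytes, 7 in oligodendrocytes, 3 in OPC, 4 in microglia and 6 in endothelial cells, where 48%, 49.5%, 26.7%, 25.6% and 30.3% of all genes were, so these shares were near the background. Pld2, a phospholipase that binds TREK channels, was higher in astrocytes (2.88 ± 0.18, adjusted p = 2.16e-20), and Plcb1, which acts below Gq, in astrocytes (0.45 ± 0.10, adjusted p = 0.000189) and endothelial cells (0.84 ± 0.23, adjusted p = 0.00272). Pld2 entered the fit through its astrocyte sums, where it is high. The median over the 5 members tested was −0.45 in astrocytes, −1.05 in oligodendrocytes, 0.93 in OPC, −0.60 in microglia and −1.31 in endothelial cells. Over all genes tested it was −0.07, −0.05, −0.06, −0.13 and −0.09. Kcnk4, Kcnk12 and Kcnk13 are not in the medians of the members, and Kcnk13 was higher in oligodendrocytes than in neurons. Kcnk3 and Kcnk10 are in them only through their OPC sums, and Kcnk1 only through those of OPC and astrocytes. The filter thus favoured a high median in OPC, which is a description only. Between peptide classes, 1 of 85 tests of partners passed, that of S100a10 in Pomc neurons (0.56 ± 0.13, adjusted p = 0.0125). S100a10 is an adaptor known to carry TASK-1 to the surface.

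The effect of DOCA-salt was tested within each class, which asks whether treatment altered these channels. By edgeR 0 of 69 member tests passed, 8 had an unadjusted p under 0.05, and DESeq2 called 1. The background was low as well, from 0% of all genes in other neurons, all neurons and all nuclei to 0.866% in Agrp neurons. With 2 pools on each side, an exact permutation test of a single gene cannot go below a two-sided p of 0.333.

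Of these 8, 6 were tests of Kcnk9, in Pomc, Tac2 and other neurons, all neurons, oligodendrocytes and all nuclei. All neurons hold the peptide classes and other neurons, and all nuclei hold every class. Tests in these nested sums, here and below, therefore use the same counts again and are not independent. In all neurons Kcnk9 was at 111.0 CPM in DOCA-salt 1 and 94.9 in DOCA-salt 2, against 151.0 in Sham 1 and 154.8 in Sham 2. Both DOCA-salt values were below both Sham values here, as was the case for 17.6% of all genes tested in neurons. The log2 difference was −0.60 ± 0.15 (adjusted p = 0.599). In other neurons, where 96.1 and 93.7 CPM stood against 149.5 and 150.7, it was −0.69 ± 0.14 (adjusted p = 0.554). DESeq2 called the gene in other neurons, and over 16 alternatives the adjusted p ran from 0.0269 to 0.999.

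The same order of groups appeared in 7 of the 8 classes with 2 pools on each side, where between 15.3% and 20% of all genes tested did so in any one class. The share of all genes with this order in as many classes was not computed, so the count of 7 is a description. Among the 7 are microglia (25 UMIs of Kcnk9 in all) and endothelial cells (15 UMIs). Kcnk9 was too low to be tested in both, so the shares there are of other genes. These classes come from the same 4 pools and are not independent. The part of free RNA of neurons in the glial and endothelial values was not tested. Tac2 neurons had 61.3 and 125.1 CPM in the DOCA-salt pools and 182.6 and 214.0 in the Sham pools (−1.10 ± 0.34, adjusted p = 0.950, with Pdyn low in those of DOCA-salt 2), and oligodendrocytes 38.3 and 53.6 against 87.7 and 83.4 (−0.80 ± 0.35, adjusted p = 0.571). Pomc neurons were the class in which the groups overlapped (−0.70 ± 0.31, adjusted p = 0.730), and without DOCA-salt 1 their difference was 0.13. Without DOCA-salt 2, Kcnk9 passed in Pomc neurons (adjusted p = 0.0409) and in Tac2 neurons (adjusted p = 2.78e-07), 2 calls in all, with DOCA-salt 1 then the only DOCA-salt pool.

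Region moved with treatment beside this result. Nuclei with striatal genes, Pmch or Hcrt made up 11.1% of other neurons in DOCA-salt 1 and 6.25% in DOCA-salt 2, against 0.599% and 0.396% in the Sham pools. Without them the difference of Kcnk9 in other neurons was −0.63 (adjusted p = 0.501). This removal and its marker genes were added after seeing the data. The part of other regional differences, and of the greater depth of Sham 1, in this result was not tested.

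In Agrp neurons Kcnk9 was at 331.6 CPM in the single DOCA-salt pool with enough nuclei and at 210.6 and 259.8 in the Sham pools (0.40 ± 0.22, adjusted p = 0.670). Whether this differs from other neurons was tested by a class-by-treatment term. The gap between the effects was 1.08 ± 0.24 on the log2 scale (adjusted p = 0.117). By edgeR 0 of the 70 passed and 3 had an unadjusted p under 0.05, against few calls over all genes: 0% in Agrp, Sst, OPC and endothelial cells, 0.0261% in Pomc (0.0174% higher, 0.00871% lower), 0.0174% in Tac2, astrocytes and microglia, 0.00871% in Ghrh and 0.0522% in oligodendrocytes (0.0435% higher). The gap was called with no filter of low counts, with doublets removed and without DOCA-salt 2, and over 6 alternatives the adjusted p ran from 2.03e-05 to 1. It rests on 1 DOCA-salt pool, which also held the striatal genes.

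In microglia Kcnk2 was at 67.2 and 34.4 CPM in the DOCA-salt pools and at 157.3 and 192.2 in the Sham pools, from 6, 3, 6 and 19 UMIs (−1.76 ± 0.66, adjusted p = 0.511). Kcnk2 passed the filter of low counts there only through its Sham values, the group where it is high. The difference is therefore no more than a description. The groups did not overlap, as for 19.1% of genes tested there in this direction, and the difference from other neurons was −1.62 ± 0.71 (adjusted p = 0.914). DOCA-salt 2 was the lowest pool for Kcnk2 in several neuron classes. It had 90.1 CPM in all neurons, where the other pools had 127.3 to 134.8, and 67.0 in Sst neurons, where the others had 121.8 to 125.2. Without DOCA-salt 1, Kcnk2 in Sst neurons and in all neurons and Kcnk9 in other neurons, all neurons and all nuclei passed, 5 calls in all, with DOCA-salt 2 then the only DOCA-salt pool.

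**Figure D5:**
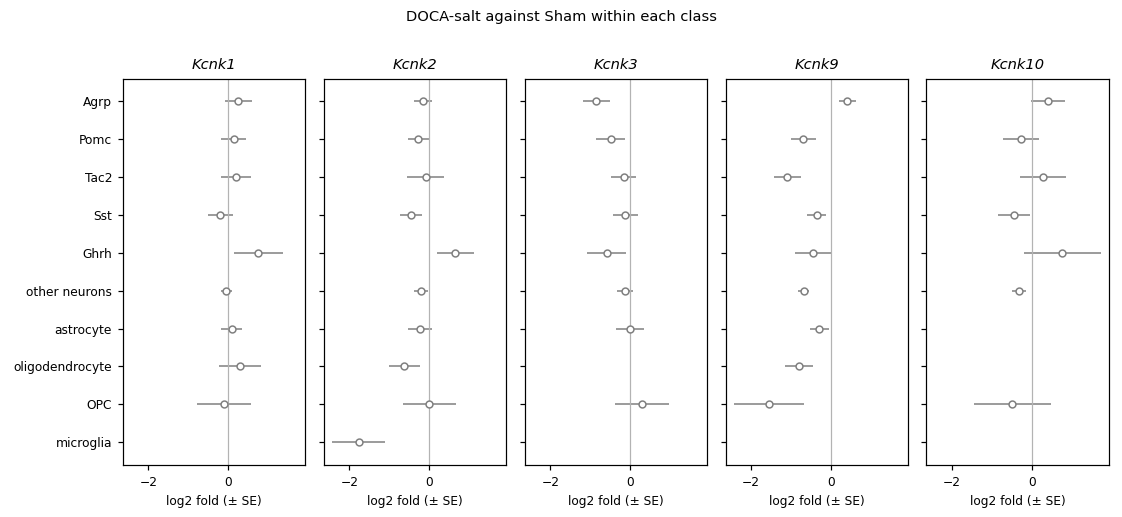
Log2 fold of DOCA-salt over Sham within each class for 5 members, with the SE as bars. Open points did not pass an adjusted p of 0.05, which holds for every point shown. Kcnk9 lay left of 0 in each class drawn except Agrp, and microglia have a point for Kcnk2 only.

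Of the 8 classes with 2 pools on each side, the groups overlapped in 5 for Kcnk1 and Kcnk2, in 7 for Kcnk3, Kcnk12 and Kcnk13 and in 8 for Kcnk4. The DOCA-salt pools lay below for Kcnk2 in Sst neurons, oligodendrocytes and microglia, for Kcnk1 and Kcnk3 in microglia and for Kcnk13 in astrocytes. They lay above for Kcnk1 in Pomc neurons and oligodendrocytes and for Kcnk12 in oligodendrocytes. For Kcnk10 the groups overlapped in 3, with the DOCA-salt pools below in 4 (Sst neurons, other neurons, oligodendrocytes and endothelial cells) and above in 1 (astrocytes). Of all genes tested, 15.3% lay below in Sst neurons, 16.8% in oligodendrocytes, 16.5% in astrocytes, 19.1% in microglia and 20% in endothelial cells. Above lay 23.5% in astrocytes, 21.4% in Pomc neurons and 19.8% in oligodendrocytes. Of the members only Kcnk2 was tested in microglia. Endothelial cells held 2 UMIs of Kcnk10 in all, and it was not tested there. In other neurons Kcnk10 was at 19.0 and 15.4 CPM in the DOCA-salt pools and at 21.5 and 20.6 in the Sham pools (−0.33 ± 0.18, adjusted p = 0.611), where 18.3% of all genes had both DOCA-salt values below. Kcnk1 had 40.7 and 41.8 CPM in neurons of the DOCA-salt pools and 43.2 and 39.5 in those of the Sham pools (−0.03 ± 0.15, adjusted p = 0.953), and in astrocytes 89.1 and 72.0 against 78.8 and 69.0 (0.08 ± 0.25, adjusted p = 0.959). Kcnk3 in Agrp neurons was at 26.7 in DOCA-salt 1 against 27.7 and 54.9 in the Sham pools (−0.84 ± 0.35, adjusted p = 0.373). Kcnk13 in oligodendrocytes was at 33.5 and 37.6 CPM against 29.2 and 58.8 (−0.42 ± 0.40, adjusted p = 0.843). Over the lists, 0 of 185 tests of partners and 0 of 83 tests of other resting conductances passed by edgeR, with 14 and 1 at an unadjusted p under 0.05.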

How the data were processed

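Nuclei of ARC punches, pooled from 2 mice a library, were sequenced with a 10x 3′ kit. The deposited values are raw UMI counts per gene and barcode, which the authors made with Cell Ranger 3.0.1 on mm10 per the submitters' processing notes. The authors' mapping metrics list intronic reads apart from exonic reads and from reads mapped to the transcriptome. No source used here states outright whether intronic reads entered the counts. The libraries held 45126915 to 79437196 UMIs.

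Barcodes with 200 to 7000 genes, at most 25000 UMIs and at most 15% mitochondrial UMIs were kept. A glial or vascular class needed at least 3 UMIs of at least 2 genes of its panel, at 5 per 10000 UMIs or more. It also needed at least 3 times the UMIs of any other glial or vascular panel, but only as many as the neuron panel. Neurons needed at least 3 UMIs of at least 2 genes of the neuron panel. These had to be over 3 times the UMIs of the best glial or vascular panel. Peptide classes needed 3 UMIs and 5 per 10000 of the peptide, and 5 times its rate in glia of that library. Neurons past the gates of Agrp and Sst went to Agrp. The 136 past any other combination of peptide gates entered neither a peptide class nor other neurons. Doublets were removed only in an alternative. Counts were summed per class and library (at least 10 nuclei) and tested with edgeR 4.0.16 in R 4.3.3 (TMM, filterByExpr, quasi-likelihood test), with Benjamini-Hochberg adjustment over the genes of each comparison and a threshold of 0.05. DESeq2 1.42.0 was an alternative. The treatment test was checked on simulated data in 5 of its sums, the glial test in oligodendrocytes and the peptide test in Agrp neurons, and the class-by-treatment test was not simulated. The simulated log2 fold was 2, with the same spread for all genes. The treatment test recovered 77.5% of such changes in microglia and 97.0% in all neurons. Smaller folds were not simulated. A count of 0 was read as allowing 3 counts, and intervals are exact at 95% and cover counting error only.

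The genes named were all members, the genes of 3 lists, and the 2 genes closest to each member in class profile. Members, lists and tests were chosen with earlier results of these data known. The pool numbers are shared by the groups, but no source ties a DOCA-salt pool to a Sham pool. The comparison of other resting conductances between peptide classes is not reported here.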

Additional observations from a re-analysis of the deposited data

How the results depend on the processing

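Of the values of single members under the alternatives, 512 kept their direction and side of the threshold, 17 passed it newly, 39 no longer passed it and 2 changed sign: Kcnk9 for DOCA-salt against Sham was 0.13 in Pomc neurons without DOCA-salt replicate 1 (−0.97 to 0.13 with each library left out) and 0.082 in Ghrh neurons under the stricter peptide gate. The causes were not tested.

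For DOCA-salt against Sham within classes, members called went from 0 to 1 with DESeq2 and ranged from 0 to 5 with each library left out. All genes called went from 153 to 353 with DESeq2, 711 with no filter, 50 with doublets removed, 91 and 233 with the stricter and looser peptide gates, 57 with the gate on Agrp and Npy, 244 with the upper limits dropped, 25 with thinned sums and 100 to 4828 with each library left out (4828 without DOCA-salt 1, 1556 without DOCA-salt 2, 100 without Sham 2). With the replicate block, there were 0 calls of members and 83 calls over all genes. The counts of this paragraph and the next are calls summed over classes, so a gene can count more than once. Deviations of same-numbered pools correlated at −0.29 over 14142 genes, so the numbers were not taken as pairs. With the crossed pairing, added after seeing the data, there was 1 call of a member and 431 calls over all genes.

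For glia against neurons, 16 calls of members and 13721 over all genes went to 0 (no member was tested) and 1540 with thinned sums. Without the library block the calls over all genes went to 8966. Leaving out a library gave 12 to 14 calls of members and 11641 to 14103 over all genes. Between peptide classes, 7 calls of members and 1761 over all genes went to 2 and 247 with thinned sums, and to 1 and 324 without the library block. With a library left out they went to 5 to 9 and 762 to 2068 (857 without DOCA-salt 1, 762 without Sham 2). For treatment effects against other neurons, members called went from 0 to 1 with no filter, 1 with doublets removed, and 0 to 2 with a library left out (2 without DOCA-salt 2).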
